A study of Mus musculus with 90 samples.

Results

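Mouse CT26 colon carcinoma cells that had no earlier exposure to interferon-γ (IFNγ) were compared after 24 h in 50 IU/mL IFNγ with controls that received none, and the full acute response of the line is described here by named genes and functions. Members were chosen by their labels alone: the 3 replicates of CT26 at 0 weeks, 24 h with IFNγ, and the 3 replicates of CT26 at 0 weeks, 0 h without it, which make 6 of the 90 samples of the series. The series sequenced the 3′ ends of transcripts of CT26 and of YUMM2.1, a mouse melanoma line. Each line has 15 groups in triplicate, which differ in the weeks of earlier culture with IFNγ or vehicle and in the hours of a final exposure. Its stated question was how untreated, briefly treated and lastingly treated tumour cells differ in their transcripts. By the labels, controls received bovine serum albumin at 0 IU/mL in place of the cytokine. A legend of the study describes the same time course with a control that was left untreated, so it is uncertain whether vehicle was added. No group is labelled as 24 h without IFNγ, so effects of the cytokine and of time in culture cannot be told apart. A further 3 samples of the same line taken after 2 h of IFNγ, and the 6 matching samples of YUMM2.1, are used below for comparison. CT26 is a single established line, derived from a chemically induced colon tumour of a BALB/c mouse, so the values describe 1 genetic background, and the study calls its replicates triplicate experiments. P-values therefore measure the spread between such replicates, estimated over all groups of the line and not from the 6 samples alone. In the comparison of the lines it was estimated over the groups of both.

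IFNγ is the cytokine by which T cells and natural killer cells instruct other cells to present antigen and to resist intracellular pathogens. It binds the receptor chains Ifngr1 and Ifngr2, which activate the kinases Jak1 and Jak2, and their signal reaches genes that carry a palindromic element called GAS. Among the first genes switched on are transcription factors such as Irf1, which like Stat2 and Irf9 acts on a further element called ISRE, so that a fast layer of transcription is followed by a slower and broader one. In tumour cells the pathway is known both for antigen presentation and for Cd274 (PD-L1), the ligand by which a cell restrains T cells.

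Total counts per library were 1458270, 1593990 and 1677329 in the controls and 519097, 618598 and 1337965 after 24 h, so every library at 24 h held fewer counts than any control. Replicates 1 and 2 at 24 h held the fewest and are called the shallow libraries below. In these, 10687 and 11045 genes had a count, against 13291 in the third and 13350 to 13948 in the controls. The share of counts from mitochondrially encoded genes was 7.89% and 7.93% in the shallow libraries, 6.20% in the third and 6.07% to 6.18% in the controls, and the share from ribosomal protein genes was 13.3%, 14.4% and 16.3% against 15.9% to 16.8%. The part of these differences in the results was not tested, and counts are given below with and without the shallow libraries. Leaving both out keeps 1 library at 24 h, whose spread is assumed to be that of the other groups, so that a call can be lost there with its fold unchanged. Of 16 macrophage and leukocyte genes, 13 were at 0 in every control and 14 at 0 in every 24 h library, and their summed level was at most 3.58 and 5.98 CPM (counts scaled to a common library size, the usual unit of count tables), respectively. These summed levels are scaled by library totals, and the CPM of single genes given further on by totals after TMM normalization. Of the 12 genes listed for intestinal epithelium, 8 were at 0 in all controls, among them Epcam, Cdh1, Vil1 and Cdx1, and the summed level of 56.9 to 65.9 CPM in controls and 48.5 to 67.4 CPM at 24 h came mainly from Krt20 and Krt18. Most defining genes of the labelled colon tissue thus had no counts. Summed fibroblast markers were 21.3 to 25.7 CPM in controls and 4.85 to 15.7 CPM at 24 h. Melanocyte markers, mainly from Gpnmb, were 18.5 to 21.3 and 29.1 to 38.8 CPM, and endothelial markers, nearly all from Pecam1, 274 to 290 and 237 to 295 CPM (n = 3 each). Because the RNA was measured in bulk, a change in the number of cells and a change in RNA per cell cannot be told apart.

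Far more genes were higher than lower after 24 h of IFNγ. Of 8516 genes with enough counts to test, 174 (2.04%) passed an adjusted p of 0.05 in the edgeR quasi-likelihood test, of which 151 (1.77%) were higher at 24 h and 23 (0.27%) were lower, while 971 genes had an unadjusted p under 0.05. The higher genes had a median log2 fold change of 2.40, or 2.36 with the 4 genes at 0 in all controls set to their lower bound, beside a median of -0.02 over all genes tested, and 93 of them exceeded 2 on the log2 scale. The lower genes had a median of -1.04, or -0.89 with the gene at 0 in every 24 h library at its bound. In 146 of the 151 the 3 treated libraries all lay above the 3 controls, and in all 23 lower genes they all lay below, whereas among all genes tested 7.97% lay above and 9.24% below. Without the shallow libraries, 121 genes passed (109 higher and 12 lower), of which 107 were among the 151 and 10 among the 23, and all 174 kept their sign. Without the third library, which is the deepest at 24 h, 283 genes passed (211 higher and 72 lower), and without either shallow library alone the lower genes numbered 15.

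The 20 largest fitted increases belonged to immunity-related and guanylate-binding GTPases, to nucleic acid sensors and antiviral genes, and to Cd274, Psmb9, Phf11b and Apol6. Cd274, Phf11b and Apol6 had 0 counts in all controls, so their place in that order depends on the prior count of the fit, and the counts support increases of at least 5.63-fold, 5.30-fold and 1.62-fold, respectively. Tgtp1, an immunity-related GTPase, had 7.09, 0 and 0 CPM in controls and 475, 651 and 378 CPM at 24 h, a log2 fold change of 7.79 (adjusted p = 7.87e-14), and its single control with reads was far below every treated library. With the other controls at 0, the size of this change is poorly fixed, and it ran from 7.05 to 12.25 on the log2 scale over the alternatives tried. Of the 31-base words near the 3′ end of Tgtp1, 85.1% occur in another gene, most of them in its neighbour Tgtp2, so the split of reads between the pair is uncertain. Zbp1, a sensor of Z-form nucleic acids that can start necroptosis, had 7.799, 6.25 and 5.35 CPM in controls and 348, 318 and 279 CPM at 24 h (log2 fold change 5.59, SE 0.22, adjusted p = 2.51e-23). Its replicates were close to each other in both groups, and its adjusted p was the smallest of all genes tested.

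**Figure D1:**
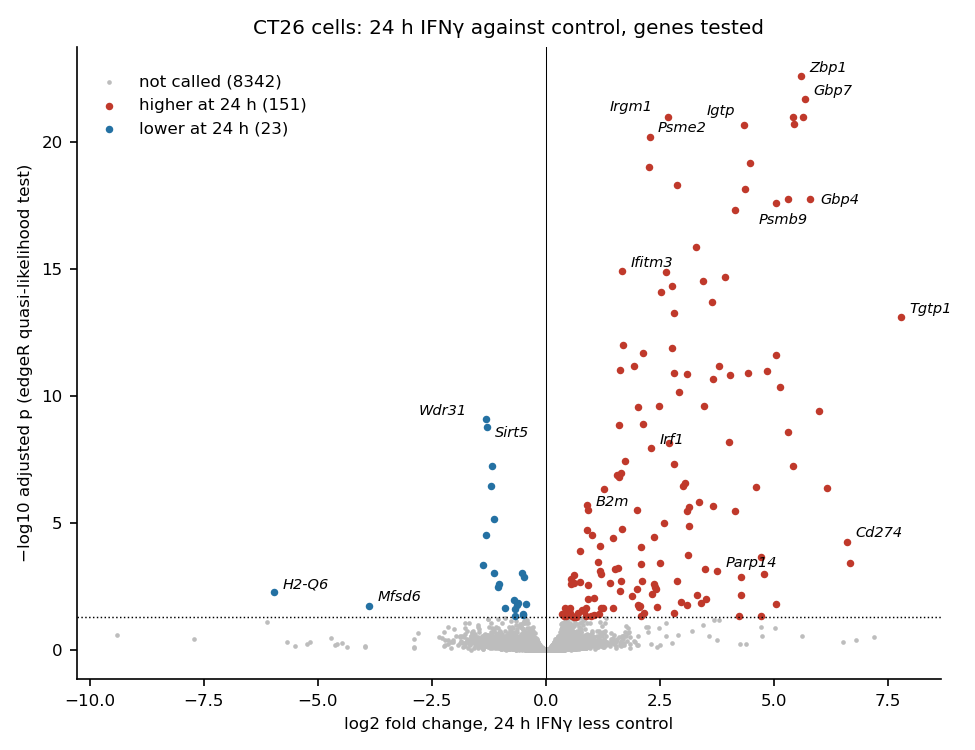
Log2 fold change of each tested gene, 24 h IFNγ less control (x axis), against -log10 of its adjusted p from the edgeR quasi-likelihood test (y axis), with n = 3 libraries per group and called genes coloured. The 151 higher genes reach a log2 fold change of 7.79 and an adjusted p of 2.51e-23, and the 23 lower genes stay nearer to 0 on both axes apart from 2 genes with few counts.

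None of the tested receptor chains and kinases passed the test, while Stat2 rose. Ifngr1, the ligand-binding chain, had 6.38, 12.5 and 12.5 CPM in controls and 15.8, 5.096 and 9.66 CPM at 24 h (log2 fold change -0.09), and Ifngr2, Jak1 and Jak2 had log2 fold changes of -1.12, 0.17 and -0.59. None of these passed the test, and Ifngr2 had at most 4 counts in any of these libraries, so that only a large change would have been detectable. Stat2, which forms a complex with Irf9, rose from 2.13, 0.625 and 4.75 CPM to 23.8, 11.9 and 30.5 CPM (log2 fold change 3.14, adjusted p = 1.25e-05). Irf9 itself, already at 150.3, 147 and 137 CPM in controls, had 174, 195 and 151 CPM at 24 h, which did not pass the test (log2 fold change 0.24, adjusted p = 0.501).

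Of the 8 tested members of a list of IRFs and other regulators, which also holds the ubiquitin ligase Trim21, 4 rose (median log2 fold change 2.56). Irf1 had 8.51, 6.87 and 6.54 CPM in controls and 27.7, 42.5 and 37.2 CPM at 24 h, a 4.95-fold increase (log2 fold change 2.31, adjusted p = 1.07e-08). Irf7, which drives type I interferon genes, rose from 1.42, 2.498 and 5.35 CPM to 35.6, 35.7 and 57.98 CPM (log2 fold change 3.79, adjusted p = 6.51e-12), and the third treated library was the highest. Trim21, an antibody receptor and ubiquitin ligase of the cytosol, rose with a log2 fold change of 4.02 (adjusted p = 6.11e-09). Batf2, a basic leucine zipper factor, had 2, 2 and 0 counts in controls and 3, 5 and 8 at 24 h (log2 fold change 2.82, adjusted p = 0.034), and without the shallow libraries it had 2.67 and did not pass. Nlrc5, the transactivator of MHC class I genes, was covered by 1 count over the 3 controls and 7 over the 3 treated libraries and did not pass (adjusted p = 0.167). Irf2 and Irf3 had log2 fold changes of 0.36 and 0.49 and did not pass either.

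The sequences upstream of 6 of the higher genes are shown because their windows hold a GAS, an ISRE or both. They were taken from RefSeq on GRCm38.p6 and cover the 250 bases before each annotated start, written 5′ to 3′ on the gene's strand. Capitals mark GAS (TTCNNNGAA, which is its own reverse complement) and ISRE (GAAANNGAAA, read on either strand, so that it can appear as TTTCNNTTTC). The window of Irf1 (chr11:53769764-53770013, plus strand) holds 1 GAS, 90 bases before the start, and that of Psmb8 (chr17:34197945-34198194, plus strand) holds 1 GAS, 97 bases before it. The window of Igtp (chr11:58199306-58199555, plus strand) holds a GAS 45 bases and an ISRE 34 bases before the start, and that of Gbp7 (chr3:142530086-142530335, plus strand) holds 2 GAS and 1 ISRE. The window of Gbp2 (chr3:142620413-142620662, plus strand) holds 1 ISRE, 59 bases before the start, and that of Ifit3 (chr19:34583279-34583528, plus strand) holds 2 ISRE and no GAS.
Irf1: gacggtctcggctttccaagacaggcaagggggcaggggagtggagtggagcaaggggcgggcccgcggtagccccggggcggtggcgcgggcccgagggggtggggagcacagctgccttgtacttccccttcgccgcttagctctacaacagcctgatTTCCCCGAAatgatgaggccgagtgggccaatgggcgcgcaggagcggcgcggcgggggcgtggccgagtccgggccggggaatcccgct
Psmb8: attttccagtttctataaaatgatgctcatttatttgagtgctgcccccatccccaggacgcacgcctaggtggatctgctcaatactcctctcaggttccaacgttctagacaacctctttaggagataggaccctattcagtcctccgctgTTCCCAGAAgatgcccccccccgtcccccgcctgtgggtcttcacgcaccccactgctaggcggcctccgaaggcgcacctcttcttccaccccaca
Igtp: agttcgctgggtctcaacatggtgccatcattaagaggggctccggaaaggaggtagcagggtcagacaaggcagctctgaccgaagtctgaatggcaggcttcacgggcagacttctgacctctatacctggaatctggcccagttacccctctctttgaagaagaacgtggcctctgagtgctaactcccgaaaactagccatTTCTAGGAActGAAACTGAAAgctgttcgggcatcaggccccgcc
Gbp7: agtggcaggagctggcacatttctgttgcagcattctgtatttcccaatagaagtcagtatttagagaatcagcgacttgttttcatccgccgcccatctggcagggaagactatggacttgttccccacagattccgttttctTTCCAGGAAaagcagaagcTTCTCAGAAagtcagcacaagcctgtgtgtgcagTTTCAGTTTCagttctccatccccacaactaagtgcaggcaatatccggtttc
Gbp2: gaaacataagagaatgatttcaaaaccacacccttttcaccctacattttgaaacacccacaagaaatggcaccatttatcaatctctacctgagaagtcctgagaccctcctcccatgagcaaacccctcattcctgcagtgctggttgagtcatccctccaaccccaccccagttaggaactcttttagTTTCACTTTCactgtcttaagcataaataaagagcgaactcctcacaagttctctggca
Ifit3: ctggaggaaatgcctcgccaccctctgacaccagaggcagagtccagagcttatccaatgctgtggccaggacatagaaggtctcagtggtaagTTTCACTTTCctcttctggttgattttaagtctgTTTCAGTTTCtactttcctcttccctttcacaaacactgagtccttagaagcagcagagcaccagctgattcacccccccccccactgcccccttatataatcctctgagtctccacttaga

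A GAS was found for 23 (19.5%) and an ISRE for 49 (41.5%) of the 118 higher genes that had a window. At least 1 of the pair was found for 58 (49.2%). The windows searched for these shares run past the annotated start, unlike the printed sequences, so the shares include matches that are not upstream. Among all 27025 RefSeq genes with a window the shares were 9.55% and 3.99%, and among the 6405 tested genes with one they were 7.87% and 4.12%. A longer ISRE with 1 more base (GAAANNGAAAC), which contains the shorter one, was found for 26.3% of the higher genes and 0.944% of all. Of 14 lower genes with a window, 0 had a GAS and 1 had an ISRE. As a comparison over the higher genes these shares are void, because only 118 of 151 (fewer than 80%) have a window, and they describe the matched windows alone. A match is a run of letters and not a measured binding site. An upstream sequence without one, as for Cd274, says only that these letters are not in it.

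After 2 h a smaller set was higher, and 24 h brought in a much larger one. At 2 h, 20 genes (0.235% of those tested) were higher than the same controls and none was lower by the edgeR test, with 310 at an unadjusted p under 0.05. All 20 were also among the 151 of 24 h, which share the controls. They included Irf1, 10 members of the immunity-related GTPase list (Irgm1, Igtp, Irgm2, Iigp1, Tgtp1, Tgtp2, Ifi47, Gm4951, Gm4070 and F830016B08Rik), the GTPases Gbp2, Gbp2b, Gbp3 and Gbp7, and Rtp4, Trim21, Ly6a and Apol10b. Compared directly with 2 h and without the controls, 113 genes (1.33%) were higher and 62 (0.728%) lower at 24 h, and 984 had an unadjusted p under 0.05. Of the 151 genes above control, 101 were also above 2 h, 49 did not pass in that test in either direction and 1, Irf1, was below 2 h.

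Irf1 had 8.51, 6.87 and 6.54 CPM in controls, 83.9, 73.1 and 85.5 CPM at 2 h and 27.7, 42.5 and 37.2 CPM at 24 h, so that it stood highest at 2 h and had come down by 24 h without reaching the controls (24 h less 2 h, log2 fold change -1.15, adjusted p = 7.27e-05). Irgm1 had reached 429.8, 394 and 433 CPM at 2 h from 88.6, 74.9 and 83.8 CPM and had 539, 537 and 513 CPM at 24 h, a further difference that did not pass (0.34, adjusted p = 0.105). Of 30 tested antiviral effectors, 1 (Rtp4) was higher than control at 2 h and 22 at 24 h. Ifit3 had 4.25, 0.625 and 1.19 CPM in controls and 0.645, 1.48 and 3.34 CPM at 2 h, with overlapping libraries, and 87.1, 52.7 and 63.9 CPM at 24 h (24 h less 2 h, 5.13, adjusted p = 4.21e-12). Isg15 and Irf7 likewise had log2 fold changes of -0.77 and -0.10 at 2 h and of 3.14 and 3.79 at 24 h. The 10 genes with the smallest p above 2 h were Zbp1, Psme2, Ifi44, Gbp3, Psmb10, Ube2l6, Gbp2, Gbp4, Ly6a and Psmb9, and the 10 below it were Sirt5, Wdr31, Gm10845, Gm9864, Gm48368, Gm10040, Irf1, Snhg8, Tuba1a and Gm42858. Without the shallow libraries 92 genes differed between 24 h and 2 h (79 higher and 13 lower), and without the third 24 h library 288 did (164 and 124), whereas without the first it was 112 (88 and 24). The share of higher genes in this comparison, 64.6%, was 75.4% when libraries were scaled by their totals alone and 54.4% with DESeq2.

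**Figure D2:**
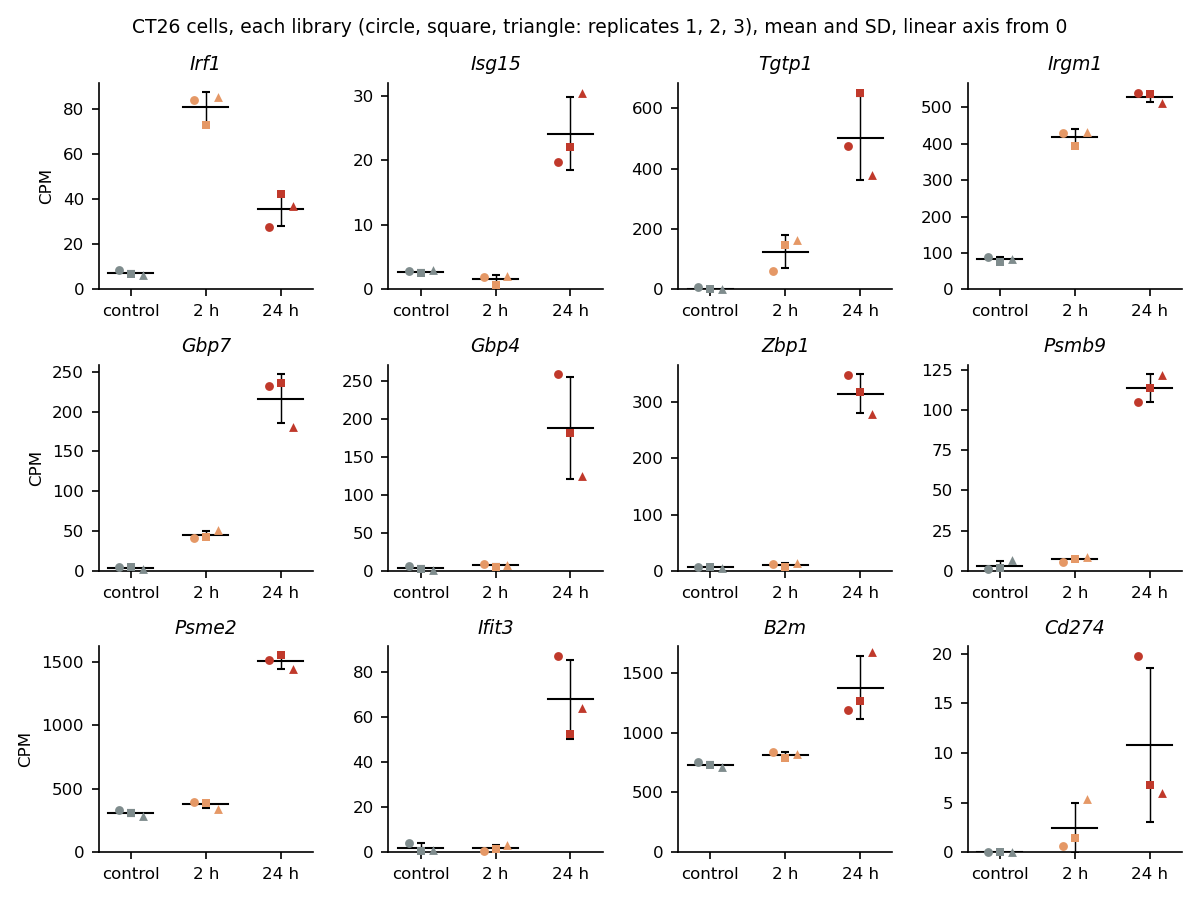
CPM (y axis, linear from 0) of 12 named genes in CT26 controls and after 2 h and 24 h of IFNγ (x axis). Points are the 3 libraries of a group, horizontal bars the mean and whiskers the SD. Irf1 is highest at 2 h, Irgm1 is near its 24 h level by 2 h, and Ifit3 is at control level at 2 h and above it at 24 h.

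The interferon-inducible GTPases, which attack the vacuoles of intracellular pathogens, had the largest medians of the lists examined. Of 10 tested guanylate-binding proteins, 7 rose, and the median log2 fold change was 5.43, or 5.08 with the genes at 0 in controls set to their bound. Gbp7 had 4.96, 4.996 and 2.38 CPM in controls, 41.9, 42.8 and 51.4 CPM at 2 h and 232, 236 and 181 CPM at 24 h, a 51.3-fold increase over control (adjusted p = 2.02e-22). Gbp2 rose from 4.25, 1.25 and 7.73 CPM to 182, 173 and 224 CPM (log2 fold change 5.42, adjusted p = 1.06e-21), and every treated library lay far above the highest control. Gbp4 was still at 9.03, 5.17 and 8.01 CPM at 2 h and reached 259, 182 and 126 CPM at 24 h (log2 fold change 5.78). Gbp2b, Gbp3 and Gbp9 had log2 fold changes of 5.63, 5.45 and 4.13. Gbp5 passed on 1 count in the controls and 14 at 24 h, a ratio of 26.9 (95% interval 4.10 to 1139, counting error only), and without the shallow libraries it did not pass (log2 fold change 4.24 with them and 4.10 without). Gbp6, Gbp8 and Gbp10 had too few counts and did not pass (adjusted p of 0.274, 0.116 and 0.277). Of the 4280 sequence words of Gm43302, 4094 also occur in Gbp6. Gm43302, which is outside the lists, was higher at 24 h (log2 fold change 5.31, adjusted p = 2.69e-09). The split of reads between Gm43302 and Gbp6 is uncertain, so a lack of response of Gbp6 cannot be read from its counts.

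Of 13 tested immunity-related GTPases, 11 rose (median 4.43), with or without the shallow libraries. Irgm1, a regulator of the family, was the most abundant in controls and rose 6.41-fold (log2 fold change 2.68, SE 0.12, adjusted p = 1.06e-21). Igtp rose from 7.799, 9.37 and 8.32 CPM to 194, 156 and 175 CPM (log2 fold change 4.34, adjusted p = 2.22e-21), and its promoter is among those printed above. Iigp1 rose from 4.96, 4.37 and 1.19 CPM to 152, 141 and 131 CPM (log2 fold change 5.32) and Ifi47 from 15.6, 9.37 and 8.91 CPM to 141, 122 and 109 CPM (log2 fold change 3.44). Tgtp2 rose from 19.1, 23.7 and 27.3 CPM to 687, 280.3 and 557 CPM with its replicates more than 2 times apart, which is the gene that shares its 3′ sequence with Tgtp1. Gm4841 and F830016B08Rik had 1 count each in the controls and 31 and 48 counts at 24 h, ratios of 59.7 (95% interval 9.94 to 2432) and 92.4 (15.8 to 3724). Gm12250 had log2 fold changes of 3.69 against control, which did not pass, and of 6.08 against 2 h, which did (adjusted p = 0.0122).

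**Figure D3:**
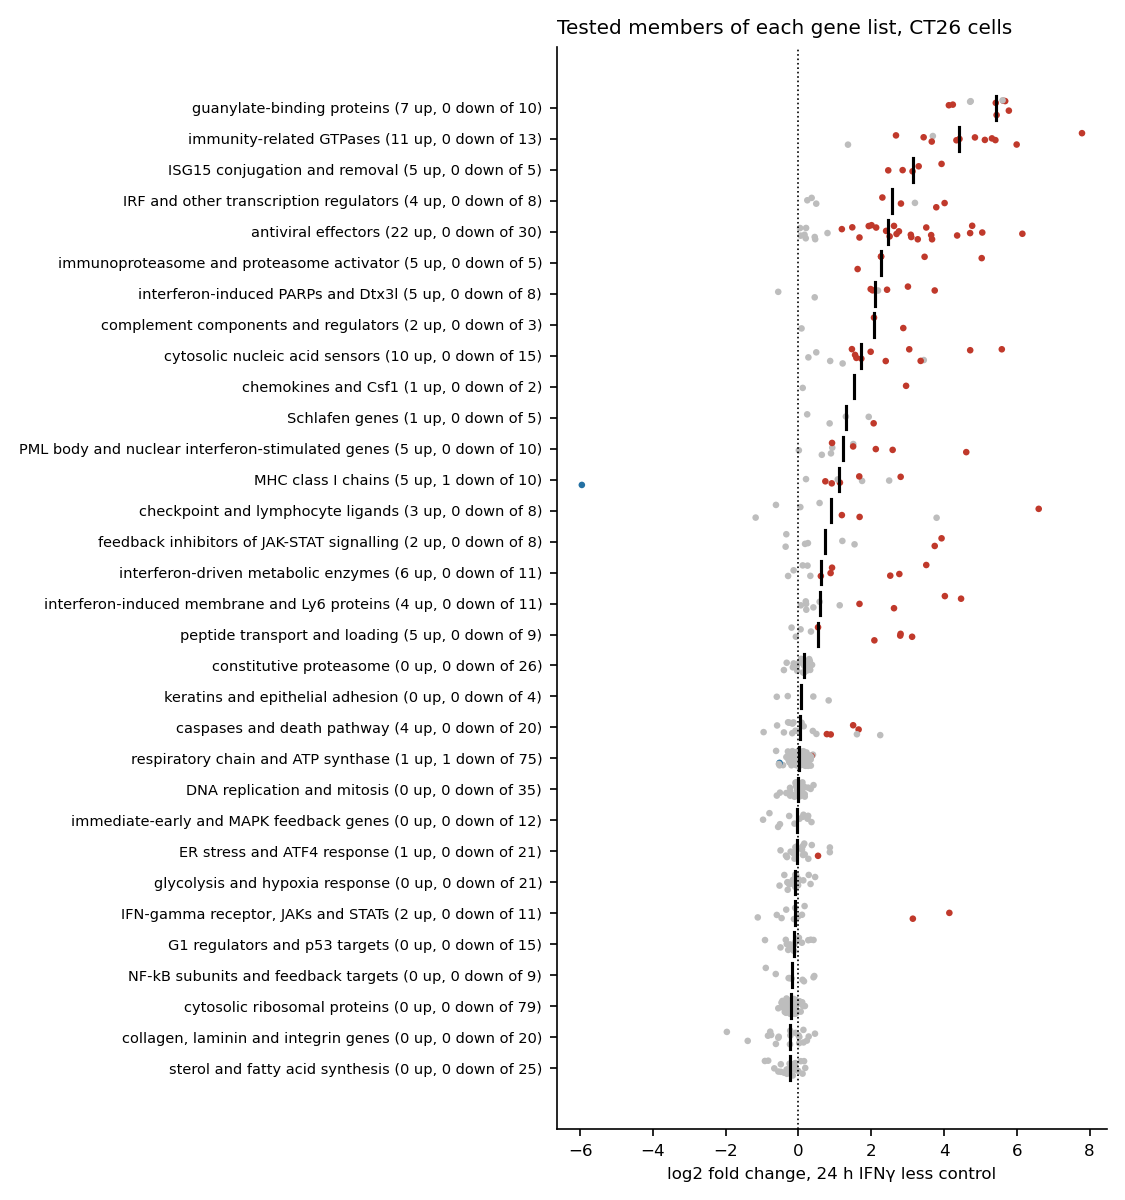
Log2 fold change, 24 h IFNγ less control (x axis), of each tested member of the gene lists (y axis), with called genes coloured and the median of each list marked, beside the median of -0.02 over all 8516 genes tested. The 2 GTPase families have medians of 5.43 and 4.43, and the lists of constitutive proteasome, ribosomal and replication genes lie around 0.

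All 5 members of the immunoproteasome and proteasome activator list rose (median 2.27), also without the shallow libraries. The list holds subunits that cut peptides for MHC class I and subunits that activate the proteasome. Psmb9, a catalytic subunit that replaces a constitutive one, rose from 1.42, 1.87 and 6.54 CPM to 105, 114 and 122 CPM, 32.8-fold (adjusted p = 2.48e-18), and Psmb8 rose from 6.38, 1.25 and 4.75 CPM to 55.4, 18.7 and 57.98 CPM, with its second treated library well below the other pair (log2 fold change 3.47). The third such subunit, Psmb10, rose from 75.2, 80.6 and 76.7 CPM to 335, 396 and 387 CPM (log2 fold change 2.27, adjusted p = 9.46e-20). The activator subunits Psme1 and Psme2 rose 3.09-fold and 4.83-fold, Psme2 from 336, 311 and 285 CPM to 1513, 1552 and 1439.8 CPM (adjusted p = 6.25e-21). None of the 26 tested constitutive proteasome genes passed in either direction by the edgeR test (median 0.14), with 7 higher and 1 lower at an unadjusted p under 0.05 and 1 higher by DESeq2, while Pomp, the chaperone that assembles both kinds, was 1.35-fold higher (log2 fold change 0.44, adjusted p = 0.0462) and without the shallow libraries had 0.32 and did not pass.

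Of 9 genes for peptide transport and loading, 5 rose (median 0.54), and 4 did without the shallow libraries. Tap1 and Tap2, which together form the peptide transporter, rose from 3.55, 1.25 and 2.97 CPM to 13.9, 25.5 and 26.8 CPM and from 8.51, 5.62 and 6.54 CPM to 17.8, 22.1 and 40.9 CPM (adjusted p of 0.000181 and 0.000407). Tapbp (tapasin), which holds the transporter to the empty MHC molecule, rose from 12.1, 18.1 and 16.6 CPM to 87.1, 112 and 126 CPM (log2 fold change 2.81), and Erap1, the trimming peptidase, rose 6.95-fold. Hspa5, a general chaperone of the endoplasmic reticulum, rose 1.45-fold (log2 fold change 0.54, adjusted p = 0.00245) and was the member that did not pass without the shallow libraries (0.30). The chaperones Calr, Canx and Pdia3 had log2 fold changes of -0.19, -0.07 and 0.34 and did not pass.

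Of 10 tested MHC class I chains, 5 were higher and 1 lower (median 1.11). B2m, the invariant light chain, was at 753, 730.1 and 713 CPM in controls and 1184, 1267 and 1674 CPM at 24 h, a 1.89-fold increase (SE of the log2 fold change 0.13, adjusted p = 3.13e-06), with the third treated library the highest. The classical heavy chains H2-K1 and H2-D1 rose 2.20-fold and 1.67-fold (adjusted p of 0.000325 and 0.000128), H2-K1 from 44.7, 50.6 and 48.7 CPM to 89.1, 81.5 and 135 CPM. The nonclassical H2-T22 rose from 12.1, 7.49 and 8.91 CPM to 81.2, 61.1 and 60.95 CPM (log2 fold change 2.81) and H2-M3 had a log2 fold change of 1.67 (adjusted p = 1.69e-05). H2-T23, at 1295, 1157 and 1108 CPM in controls, did not pass (0.21). H2-Q6 went the other way, with 5, 16 and 8 counts in controls and 0 in each treated library, at least 1.38-fold lower against a floor of 3 counts per library. Against the third library alone, also at 0, its adjusted p was 0.12. Of the words near the 3′ end of H2-Q6, 59.6% occur in other genes, and the reference carries the MHC haplotype of C57BL/6J while CT26 is of BALB/c origin. The effect of that mismatch on H2 counts was not tested. Of the MHC class II list, only Ifi30 had enough counts to test and it did not pass (0.13), while Ciita, Cd74, H2-Aa and H2-Ab1 had 0 counts in all 3 groups, so that no class II response was detectable at this depth.

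The antiviral programme was the list with the most genes called. Of 30 tested antiviral effectors, 22 rose (median 2.46), and 21 did without the shallow libraries. Ifitm3, a membrane protein that blocks virus entry, was abundant before treatment, at 734, 679 and 663 CPM, and reached 2142, 2069 and 2422 CPM (3.20-fold, adjusted p = 1.22e-15). Ifi44 rose from 4.25, 4.996 and 4.16 CPM to 95.04, 88.3 and 97.4 CPM (log2 fold change 4.36), Bst2 (tetherin) from 19.1, 19.98 and 20.2 CPM to 123, 119 and 126 CPM (2.63), and the treated libraries of each were close together. Rtp4, Nmi and Ifit1 had log2 fold changes of 3.28, 2.76 and 3.65. Counts of the viral RNA binder Ifit3b went from 1 to 51, a ratio of 98.2 (95% interval 16.8 to 3952), those of the GTPase Mx2 from 1 to 22 (42.3, interval 6.84 to 1747) and those of Rsad2 (viperin) from 2 to 35 (33.7, interval 8.65 to 289). Some members that are widely used as interferon genes did not pass. Xaf1, Samhd1 and Ifi27 had log2 fold changes of 0.17, 0.05 and 0.06, with Xaf1 at 1223, 1125 and 1173 CPM and Samhd1 at 1548, 1487 and 1567 CPM in controls.

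The ISG15 system, which attaches a ubiquitin-like protein to others, rose in all 5 members (median 3.14), and in 4 without the shallow libraries. Isg15 rose from 2.84, 2.498 and 2.97 CPM to 19.8, 22.1 and 30.5 CPM (log2 fold change 3.14, adjusted p = 2.39e-06). Its conjugating enzyme Ube2l6 rose from 76.6, 54.96 and 60.02 CPM to 481, 481 and 433 CPM (7.28-fold, adjusted p = 5.16e-19) and its ligase Herc6 had a log2 fold change of 2.47. The activating enzyme Uba7 went from 3 to 16 counts, a ratio of 10.3 (95% interval 2.94 to 55.0), and was the member that did not pass without the shallow libraries (log2 fold change 3.30 with them and 2.37 without). Usp18, the protease that removes ISG15 and also restrains interferon receptors, rose from 7.09, 8.74 and 5.35 CPM to 107, 83.2 and 130.1 CPM (log2 fold change 3.93, adjusted p = 2.05e-15).

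Of 15 tested cytosolic nucleic acid sensors and their editors, 10 rose (median 1.73, or 1.59 with Ifi207 at its bound), and 8 did without the shallow libraries. Beside Zbp1, the RNA helicases Ddx58 (RIG-I), Ifih1 (MDA5) and Ddx60 rose with log2 fold changes of 3.04, 2.40 and 3.36. The DNA-binding Ifi203, Ifi202b and Ifi204 of the Ifi200 family rose by less, with 1.73, 1.56 and 1.59. Tmem173 (STING), Mavs and Cgas had log2 fold changes of 0.49, 0.27 and 0.87 and did not pass.

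Of 8 tested PARPs of the interferon response and their partner Dtx3l, 5 rose (median 2.11). Parp14, a mono-ADP-ribosyltransferase of the cytosol, had 0.709, 1.87 and 0 CPM in controls, 4.52, 5.17 and 0.668 CPM at 2 h and 9.8998, 15.3 and 12.6 CPM at 24 h (log2 fold change over control 3.74, SE 0.74, adjusted p = 0.000746). These levels rest on 1, 3 and 0 counts in controls and 5, 9 and 17 at 24 h, and the treated libraries all lay above the controls. Parp9 rose from 2.84, 3.12 and 4.16 CPM to 13.9, 33.97 and 32.7 CPM (log2 fold change 3.01, adjusted p = 3.52e-07), and its ligase partner Dtx3l had a log2 fold change of 2.44 (adjusted p = 0.0191). Parp11 rose from 3.55, 6.25 and 2.97 CPM to 7.92, 16.99 and 22.3 CPM. Parp10 passed (adjusted p = 0.0205) with 6, 1 and 34 counts at 24 h, so that its treated libraries overlapped the controls and the third library was the highest. Parp12 had 0.709, 4.996 and 0.594 CPM and 1.98, 5.096 and 17.1 CPM and did not pass (log2 fold change 2.19, adjusted p = 0.123). It passed under 4 of 13 alternatives, among them the fit without the shallow libraries (2.95, adjusted p = 0.0283), in which 6 members of the list were higher.

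Few genes by which a tumour cell addresses T cells were high enough to test. Cd274 (PD-L1) had 0 counts in all 3 controls and 10, 4 and 8 counts at 24 h, which is 19.8, 6.79 and 5.95 CPM and at least 5.63-fold higher against a floor of 3 counts per library (adjusted p = 5.31e-05), and at 2 h it had 0.645, 1.48 and 5.34 CPM. It remained above the threshold without the shallow libraries. Lgals3bp and Lgals9, a galectin ligand and a galectin, rose 3.21-fold and 2.29-fold (adjusted p of 9.75e-13 and 0.000725), which makes 3 of 8 tested checkpoint and lymphocyte ligands. Il18bp had 1 count in controls and 11 at 24 h and did not pass (adjusted p = 0.0665). Among 19 chemokines and Csf1 only 2 genes could be tested. Cxcl10, which attracts T cells, had 2, 5 and 0 counts in controls and 9, 4 and 17 at 24 h (log2 fold change 2.96, adjusted p = 0.0124) and had a log2 fold change of 3.00 without the shallow libraries, where it did not pass (adjusted p = 0.0863), and Csf1 did not pass (0.12). Of 3 tested complement genes, Serping1 and C1s1 rose (2.88 and 2.08), and without the shallow libraries C1s1 had 1.76 and did not pass.

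The death genes rose in part. Of 20 tested, 4 were higher (median 0.04), and 2 without the shallow libraries. Casp1, the inflammasome caspase, rose from 5.67, 4.996 and 8.91 CPM to 21.8, 20.4 and 20.8 CPM (log2 fold change 1.65, adjusted p = 0.00184), and Daxx, which binds the death receptor pathway and also histone H3.3, rose from 25.5, 15.6 and 9.51 CPM to 53.5, 39.1 and 49.1 CPM (adjusted p = 0.000645). Mlkl, the executor of necroptosis, and Bid were 1.85-fold and 1.72-fold higher (log2 fold changes 0.89 and 0.78, adjusted p of 0.0211 and 0.0262), and they were the pair that did not pass without the shallow libraries (0.66 and 0.68). Casp9, Bax and Mcl1 did not pass (log2 fold changes of -0.17, -0.08 and -0.16). Of 8 feedback inhibitors of JAK-STAT signalling, Usp18 and Parp14 rose, while Socs1 and Socs3, the textbook inhibitors, had at most 6 counts in a library and did not pass (1.21 and 1.54).

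In the remaining interferon lists the changes were mixed. Of 11 membrane and Ly6 proteins, 4 rose (median 0.58), among them Ly6a (Sca-1), from 9.93, 9.99 and 13.7 CPM to 239.6, 255 and 259 CPM (22.1-fold, adjusted p = 6.74e-20), and Ly6c1 (log2 fold change 4.02). Of 10 PML body and nuclear genes, 5 rose (median 1.22), with Sp100 at 2.13 and Trim30a at 2.59, whereas Pml itself had 0.01 and did not pass. Of 11 metabolic enzymes of the interferon response, 6 rose (median 0.62), and 4 did without the shallow libraries. Apol9a and Apol9b had log2 fold changes of 2.52 and 2.77, Nampt, which makes an NAD precursor, rose from 34.7, 34.3 and 23.8 CPM to 57.4, 56.1 and 60.95 CPM (adjusted p = 0.00268), and the tryptophan-tRNA ligase Wars rose 1.53-fold (adjusted p = 0.0011). Of 5 Schlafen genes, Slfn8 rose (2.07, adjusted p = 0.0172).

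Of the 151 higher genes, 103 were in at least 1 list and 48 in none. Examples of the 48, chosen after their values were seen, are Phf11d, from 14.2, 13.1 and 8.91 CPM to 73.3, 115 and 113 CPM, the antiviral Samd9l, from 5.67, 9.37 and 7.73 CPM to 77.2, 62.8 and 43.1 CPM, and the large ubiquitin ligase Rnf213, with a log2 fold change of 1.88 (adjusted p = 0.00743). Phf11b and Apol6 were at 0 in all controls and were at least 5.30-fold and 1.62-fold higher. The 10 called genes with the highest mean CPM at 24 h, a ranking of 3′ counts that is not per length, were Cycs, Ifitm3, H3f3b, Psme2, B2m, Pomp, Ndufa4, Timm23, Mt2 and Rps3a2. The metal-binding Mt2 rose from 360.2, 369 and 357 CPM to 614, 599.6 and 789 CPM (adjusted p = 1.89e-05). Cytochrome c (Cycs), the histone H3.3 gene H3f3b and the mitochondrial import pore Timm23 were 1.28-fold, 1.44-fold and 1.44-fold higher with adjusted p of 0.0358, 0.0354 and 0.0214. In each of these 3 the third treated library lay below the shallow pair, and without that pair they did not pass (log2 fold changes 0.18, 0.26 and 0.30), in which the mitochondrial share of counts was also highest.

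Genes of general cell functions gave few calls. None of 35 replication and mitosis genes passed (median 0.00), nor of 15 G1 and p53 genes (-0.13), 9 NF-κB genes (-0.19), 12 immediate-early genes (-0.04), 20 collagen, laminin and integrin genes (-0.22), 21 glycolysis and hypoxia genes (-0.09), 25 sterol and fatty acid genes (-0.24), 4 keratin and adhesion genes (0.06) or 10 reference transcripts (-0.22) by the edgeR test, and DESeq2 called none of those for which it gave an adjusted p. At an unadjusted p under 0.05, 1 gene was higher and 1 lower in each of the first 2 of these lists, none in the NF-κB, immediate-early and keratin lists, 4 lower in the collagen list, 1 higher and 2 lower in glycolysis, 4 lower in sterol synthesis, and 1 higher and 3 lower among the reference transcripts. None of 79 cytosolic ribosomal protein genes passed against control (-0.19), where 17 were lower at an unadjusted p under 0.05 and DESeq2 called 1 lower, and 5 were lower than at 2 h, beside the lower share of ribosomal protein counts in the shallow libraries given above. Of 75 respiratory chain and ATP synthase genes 1 rose and 1 fell (0.02), and of 21 stress genes of the endoplasmic reticulum Hspa5 alone rose (-0.05).

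The 12 runs of at least 3 higher genes whose starts lie within 1 Mb of the next hold 52 of the 151. Such runs were not counted among all genes tested, so it is not known whether 52 is more than usual. By the GENCODE annotation of GRCm38, the largest (chr17:33909414-34216321) lies in the MHC and holds Daxx, Tapbp, H2-K1, Psmb9, Tap1, Psmb8 and Tap2. Another (chr3:142493978-142638008) holds Gbp5, Gbp7, Gbp3, Gbp2b and Gbp2, and a further run (chr11:48861968-49096974) holds Irgm1, Gm12185, Tgtp1, Tgtp2 and Ifi47. The Oas genes Oas2, Oas3, Oas1b, Oas1g and Oas1a form a run on chromosome 5 (chr5:120730333-120907521) and the Ifi200 genes another on chromosome 1 (chr1:173723427-173982744). Parp14, Dtx3l and Parp9 lie side by side on chromosome 16 (chr16:35832874-35972605). Neighbouring members of such families often resemble each other in sequence. For 50 of the 151 higher genes, more than 10% of the 31-base words within 500 bases of their 3′ ends occur in another gene. That share was not computed over all genes tested.

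The 23 lower genes had no shared theme among the lists: only H2-Q6 and Ndufa4 were list members. Sirt5, which encodes a mitochondrial lysine deacylase, had 769, 866 and 924 CPM in controls, 906, 932 and 898 CPM at 2 h and 305, 339.7 and 387 CPM at 24 h (log2 fold change over control -1.30, SE 0.14, adjusted p = 1.6e-09). Wdr31, a WD-repeat gene, had 984, 1089 and 1105 CPM in controls and 350.5, 377 and 526 CPM at 24 h (-1.32, adjusted p = 7.84e-10). In both, the treated libraries lay far below the controls and the 2 h libraries did not. Snhg8, the host transcript of a small nucleolar RNA, had 72.3, 88.1 and 76.1 CPM and 37.6, 42.5 and 31.2 CPM (-1.13, adjusted p = 0.000922). Noct, a circadian phosphatase, had 119, 119.9 and 90.9 CPM and 29.7, 79.8 and 48.3 CPM (-1.06, adjusted p = 0.00333). The α-tubulin Tuba1a had 367, 348 and 367 CPM and 196, 190.2 and 265 CPM (-0.70, adjusted p = 0.01) and Ndufa4, a cytochrome oxidase subunit, 1482, 1342 and 1362 CPM and 1038, 951 and 936 CPM (-0.52, adjusted p = 0.000876).

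Several of the lower genes share sequence with each other. Of the 253 pairs among the 23, 29 shared at least 20 words of 31 bases, and 11 genes were in such a pair. Wdr31 and Sirt5, which are not related, shared 553, the unnamed loci Gm9864 and Gm10040 shared 1237, and Noct and Gm48161 shared 966. Gm9864 had 456, 500.2 and 492 CPM in controls and 198, 156 and 262 CPM at 24 h, and Gm10845 had 259, 268 and 260.3 CPM and 107, 112 and 123 CPM. More than 10% of the words near the 3′ end occurred in another gene for 17 of the 23, and more than 50% for 7. Shared words were not counted over all genes tested, so these numbers do not set the lower genes apart. Tuba1a shared 969 words with Tuba1c, and Rps3a2 shared 646 with Rps3a1. The counts of such genes are uncertain, because reads could be divided among copies. Without the shallow libraries 10 of the 23 passed, namely Wdr31, Sirt5, Gm9864, Gm10040, Gm10845, Gm48368, Snhg8, Noct, Cnih1 and Eif1, while Ndufa4, Tuba1a, H2-Q6 and Mfsd6 did not. Ndufa4 had a log2 fold change of -0.52 with and -0.57 without these libraries (adjusted p = 0.0507), and Tuba1a -0.70 and -0.44. The third library was at 0 for both H2-Q6 and Mfsd6 (adjusted p of 0.12 and 0.0686). Mfsd6 had 35 counts in controls and 1 at 24 h (ratio 0.055, 95% interval 0.00135 to 0.327).

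**Figure D4:**
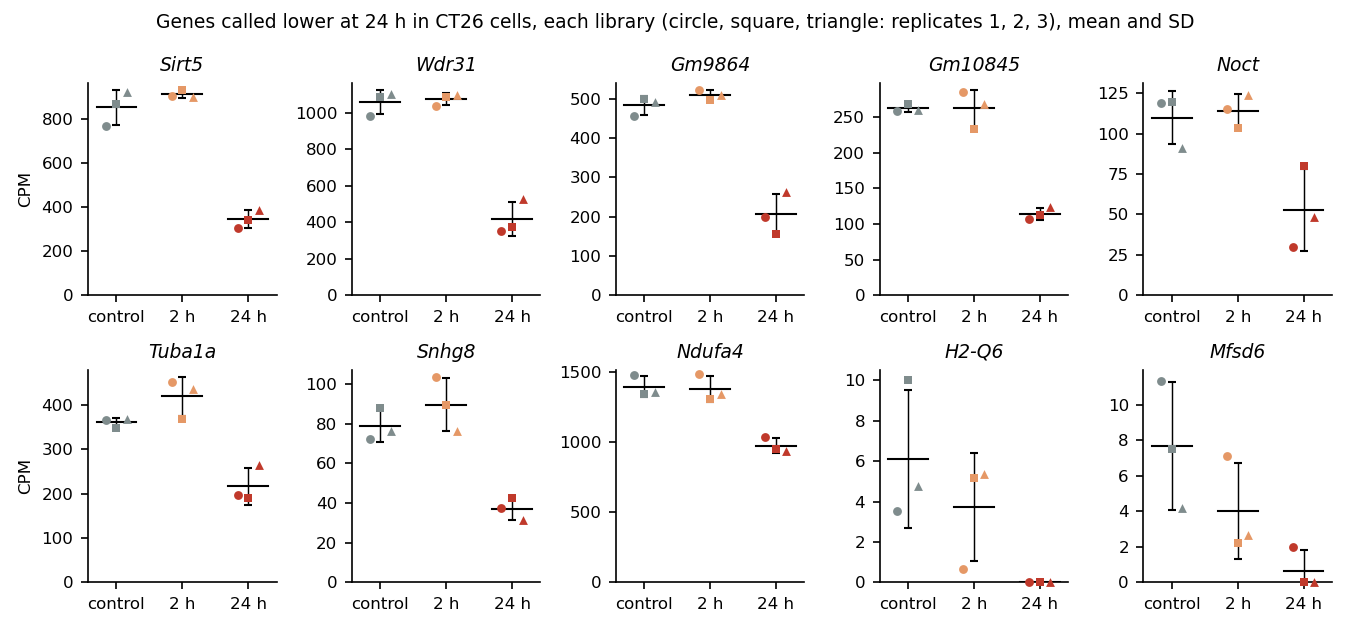
CPM (y axis, linear from 0) of 10 of the 23 lower genes in CT26 controls and after 2 h and 24 h of IFNγ (x axis), with points for the 3 libraries of a group, horizontal bars for the mean and whiskers for the SD. All 3 treated libraries lie below all 3 controls in each panel.

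Of the 23 genes below control, 18 were also below 2 h, the comparison of which shares the treated libraries. A further 43 genes were lower at 24 h than at 2 h without passing against control, and 12 were higher. The 43, named after their values were seen, held tubulins (Tubb5, Tubb6, Tubb4b and Tuba1b), S100 proteins (S100a4, S100a10 and S100a11), Actg1, Gapdh, Ppia, Eef1a1 and 5 ribosomal protein genes, with log2 differences such as -0.57 for Tubb5, -0.58 for Actg1 and -0.68 for S100a11. The ribosomal protein share of the counts was 17.1% to 17.6% at 2 h, above the 13.3% to 16.3% at 24 h, and the part of this in those genes was not tested. Without the shallow libraries, 13 genes in all were lower than at 2 h.

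The same 24 h of IFNγ was then compared with YUMM2.1, in a fit of all 90 samples with 10339 genes, in which CPM are scaled differently from the values above. There, 136 CT26 genes were higher (1.32%) and 26 lower (0.251%), and in YUMM2.1 86 were higher (0.832%) and 3 lower (0.029%), with 769 at an unadjusted p under 0.05. The higher genes had 68 in common, 50% of the CT26 set and 79.1% of the YUMM2.1 set, and the lower genes had none in common. Of the 136, 112 had a positive log2 fold change in YUMM2.1, with medians of 2.67 in CT26 and 2.02 in YUMM2.1, beside a median of -0.01 over all genes in the latter. The 26 lower genes had medians of -0.99 and -0.08. Irf1, Gbp2 and Psmb9 had log2 fold changes of 2.29, 5.41 and 5.03 in CT26 and of 2.78, 6.04 and 6.27 in YUMM2.1, and their differences between the lines did not pass (adjusted p of 0.804, 0.779 and 0.684). Depth was uneven in YUMM2.1 as well, with totals of 1867497, 812316 and 1613228 in controls and 857804, 1023031 and 2341377 at 24 h. The mitochondrial share was 5.99%, 6.32% and 5.16% in these controls and 7.10%, 7.52% and 5.11% at 24 h. The part of this in the calls of either line or in their differences was not tested.

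The response itself differed between the lines for 9 genes (0.087%), 5 of them with the larger value in CT26, and 848 genes had an unadjusted p under 0.05. Sirt5 and Ifi27 passed under each of 19 alternatives, whereas Ddx58 fell below the threshold in 15 of 18, Tor1aip2 in 13 of 19, Tbrg1 in 12 of 19, Daxx in 8 of 18, Lgals3bp in 7, H2-D1 in 5 and Ifi204 in 3 of 19. Ddx58 (RIG-I) had 1.53, 4.05 and 3.22 CPM in CT26 controls and 16.8, 30.8 and 26.4 CPM at 24 h, against 7.31, 5.66 and 6.87 and 9.33, 11.4 and 9.45 CPM in YUMM2.1 (difference of log2 fold changes 2.48, adjusted p = 0.0494). Ifi204 had 32.2, 31.03 and 23.2 CPM and 81.9, 77.8 and 93.6 CPM in CT26 and 39.7, 49.8 and 30.6 and 32.1, 45.6 and 38.98 CPM in YUMM2.1, where its libraries overlapped (difference 1.58, adjusted p = 0.00566). Daxx, Tor1aip2 and Tbrg1 also rose in CT26 alone of the pair, with differences of 1.87, 1.28 and 0.85. In the other direction, Ifi27 had 103, 93.1 and 86.8 CPM and 90.3, 95.9 and 102 CPM in CT26, with overlap, and 64.2, 61.2 and 63.7 and 167, 191 and 209 CPM in YUMM2.1 (difference -1.54, adjusted p = 4.01e-05). H2-D1 rose in both lines and more in YUMM2.1 (log2 fold changes 0.72 and 1.99, difference -1.27, adjusted p = 0.00566), from 19.8, 33.97 and 19.99 CPM there to 88.1, 78.8 and 107 CPM, and the H2 limit given above applies. The syngeneic hosts that the study used for YUMM2.1 were of the background of the reference, so that mismatch lies on the CT26 side. Its part in this difference was not tested. Sirt5 was lower in CT26 but not in YUMM2.1, where it had 57.9, 49.8 and 58.1 CPM and 57.02, 74.05 and 72.4 CPM (difference -1.61, adjusted p = 1.59e-06). The limit of shared sequence given above applies to Sirt5, and its part in this difference was not tested. Lgals3bp was at 0 in all YUMM2.1 controls, so that the size of its difference (-4.92, adjusted p = 0.0241) depends on the prior count. Without the shallow CT26 libraries 4 genes differed (1 and 3), without single libraries 3 to 9, and DESeq2 gave 20. The share with the larger value in CT26, 55.6%, was 46.2% with totals alone and 70% with DESeq2.

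**Figure D5:**
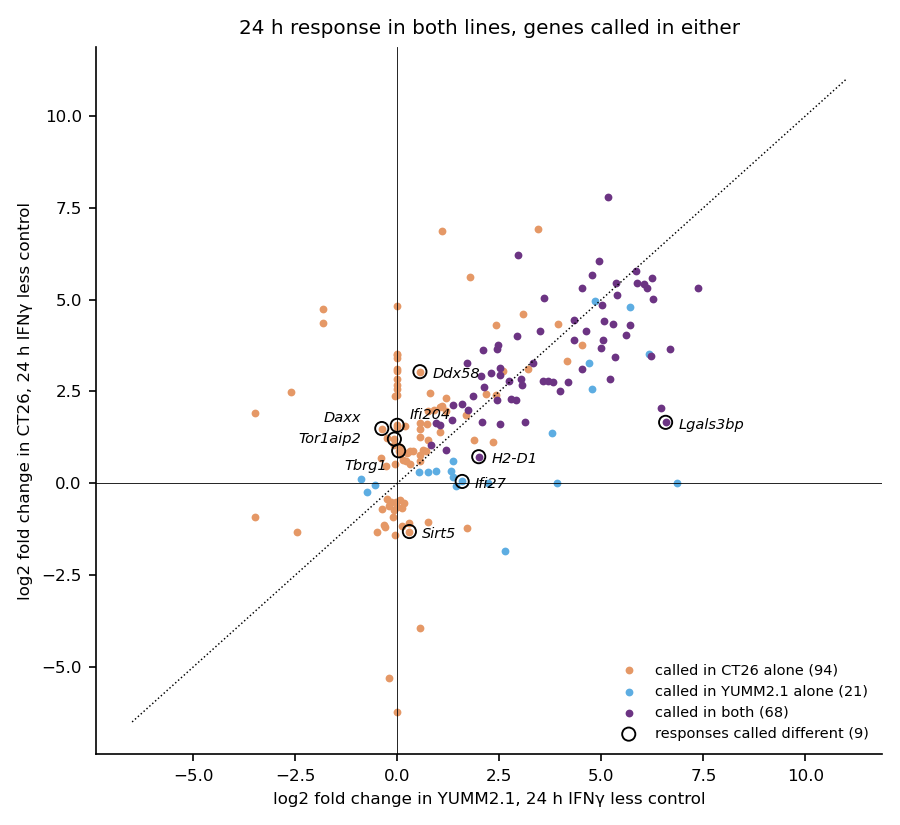
Log2 fold change at 24 h in CT26 (y axis) against that in YUMM2.1 (x axis) for genes called in either line, from the fit of both lines with n = 3 libraries per group. The 9 genes whose responses differ by the test are circled and named, 112 of the 136 genes higher in CT26 lie above 0 in YUMM2.1, and points of genes at 0 counts in a group depend on the prior count.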

How the data were processed

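The authors deposited 1 table of whole-number counts per gene and sample for all 90 samples, without normalization and without pooling of replicates. Their methods describe 3′ libraries read as paired ends with an index per sample and import with tximport, and the submitters' processing notes name Salmon 0.13.1 and mm10. The annotation release and the counting of molecular identifiers are not given in the sources used here. The methods also state that some outlier samples were discarded without naming them, and every sample given is used here. Each column was matched to a sample by its title, and 0 columns were left unused.

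Of 53697 gene identifiers, 53668 matched a symbol. Counts of the 45 CT26 samples in 15 groups were fitted together in edgeR 4.0.16 (R 4.3.3) with filterByExpr by group, TMM scaling and quasi-likelihood tests of the contrasts, which share 1 estimate of the spread, with Benjamini-Hochberg adjustment over all genes tested and a threshold of 0.05. The 90 samples in 30 groups were fitted in the same way for the comparison with YUMM2.1. A gene at 0 in a group has a bound against 3 counts per library, and a gene with 1 to 3 counts has a pooled ratio with an exact 95% interval, both for counting error only. With totals of 519097 to 1677329 in the 6 samples, 1 count was worth 0.596 to 1.93 CPM by library totals. Promoter windows came from RefSeq and positions from GENCODE for GRCm38. In a test on simulated counts, 200 genes were altered by 2 on the log2 scale. The 24 h comparison recovered 161 (80.5%) over 8516 genes, the comparison with 2 h 158 (79%) and the difference between lines 111 (55.5%) over 10339. Of the altered genes 0 were called in the wrong direction, and 11, 4 and 7 unaltered genes were called, respectively. Each gene was simulated at its mean rate over all samples of the fit, so the recovery does not describe genes near 0 in the controls.

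The gene lists and members were chosen with earlier results of these data known. The text names the 20 largest changes in each direction, the 10 called genes with the highest CPM, called list members (up to 6 by smallest p in detail), the 10 smallest p of each further test, and Parp14, Parp9, Parp12, Cd274, Irf1 and B2m, and genes outside that rule are marked where they appear. Some genes that the rule takes are not reported here. Alternatives were DESeq2 1.42.0, totals in place of TMM, no filter, other sample sets, a replicate term, the mean of 4 control groups, a fold threshold, and leaving out libraries.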

Additional observations from a re-analysis of the deposited data

Results flagged for a closer look

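The 24 h response differed between CT26 and YUMM2.1 by a direct test of the difference (edgeR, adjusted over 10339 genes) for 9 genes, given here as log2 fold change in CT26 less that in YUMM2.1. The difference was -1.61 for Sirt5 (adjusted p = 1.59e-06), which was lower in CT26 and did not pass in YUMM2.1. It was -1.54 for Ifi27 (adjusted p = 4.01e-05), which rose in YUMM2.1 and did not pass in CT26. It was -1.27 for H2-D1 (adjusted p = 0.00566), which rose in both lines and more in YUMM2.1, and the H2 limit given above applies. It was -4.92 for Lgals3bp (adjusted p = 0.0241), whose YUMM2.1 controls were all at 0 counts. It was 1.58 for Ifi204 (adjusted p = 0.00566), 1.87 for Daxx (adjusted p = 0.0277), 0.85 for Tbrg1 (adjusted p = 0.0365), 1.28 for Tor1aip2 (adjusted p = 0.0494) and 2.48 for Ddx58 (adjusted p = 0.0494), all of which rose in CT26 and did not pass in YUMM2.1. Sirt5 and Ifi27 passed under all 19 alternatives run, and each of the other 7 fell below the threshold under at least 3, Ddx58 under 15 of 18. The counts of Sirt5 are uncertain because it shares sequence with other lower genes, as given above. Groups of 3 libraries are too small to test single libraries as outliers.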

How the results depend on the processing

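No call of the 24 h comparison with control, of 24 h with 2 h or of the difference between lines changed direction under any alternative run. Of 113 named genes in the 24 h comparison, 75 kept their side of the threshold under every alternative, 37 fell below it under at least 1, and 1, Parp12, rose above it under 4. The same held for 18 and 2 of 20 genes against 2 h, and for 2 and 7 of 9 genes in the difference between lines. The main counts were 174 (151 higher and 23 lower), 175 and 9.

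Against control, a log2 fold change of at least 1 left 12 lower genes, leaving out both shallow 24 h libraries (chosen after seeing the data) also left 12, no filter on low counts gave 83 lower genes of 243, and the mean of the 4 CT26 control groups gave 336 genes (126 lower). DESeq2 gave 194 and totals alone 200. Against 2 h, a log2 fold change of at least 1 left 106 genes, both shallow libraries left out 92, and no filter 299, while DESeq2 gave 237 and totals alone 236. For the difference between lines, the counts were 4 without both shallow libraries, 20 with DESeq2, 26 with no filter and 2 with only the groups compared. Leaving out 1 library at a time gave 136 to 283 genes against control (119 to 211 higher and 15 to 72 lower), 112 to 288 against 2 h, and 3 to 9 for the difference between lines. The highest counts of the first 2 ranges came without replicate 3 at 24 h, and the cause was not tested. DESeq2 gave no adjusted p for 5283 genes against 2 h and for 7416 in the difference between lines.

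Same-numbered samples did not deviate together. The correlations of deviations were 0.13, -0.04 and 0.08 between 24 h and control and 0.03, -0.06 and 0.01 between 24 h and 2 h, and not every sample correlated best with its own number. A fit with the replicate number as a block called 176 genes against control (166 shared), 194 against 2 h and 9 between lines. Depth limits genes with few counts: at 24 h, 3 counts stand for 5.78 and 4.85 CPM in the shallow libraries and 2.24 CPM in the third by library totals.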
